A study of Rattus norvegicus with 12 samples.

Results

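The 9 genes described here encode carriers that move glutamate, GABA and glutamine across the cell membrane or into synaptic vesicles. They were chosen by gene symbol, namely Slc1a1, Slc1a2, Slc1a3, Slc17a6, Slc17a7, Slc17a8, Slc32a1, Slc6a11 and Slc38a1, and all 9 were present among the 17268 gene symbols of the count table. Glutamate released at synapses is cleared largely by sodium-driven carriers of astrocytes, which keep extracellular glutamate low, and neurons carry a further member of the same family. Vesicular carriers load glutamate or GABA into synaptic vesicles, so their transcripts mark the transmitter a neuron releases, while GABA is taken back by carriers of neurons and astrocytes. Astrocytes turn glutamate into glutamine, which neurons take up to make transmitter again, and in ischemia the ion gradients that drive uptake run down.

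RNA was sequenced from the cortex of adult male Sprague Dawley rats, in 12 libraries in 4 groups of 3. Each library is taken as 1 rat, though the sample titles give only tissue, group and number. Sham rats underwent the surgery without a clot, and Model rats had an embolic stroke from a blood clot placed in the middle cerebral artery. The rt-PA group was given the thrombolytic recombinant tissue plasminogen activator 6 h after the stroke. The rt-PA+Acu group also had acupuncture at the points Shuigou (GV26) and Neiguan (PC6) at 2 h, and no group had acupuncture alone. The libraries held between 11678450 and 13616935 counts, and 1 count stood for 0.0694 to 0.0874 CPM (counts scaled by library size and TMM factor). At this depth 8 of the 9 genes held at least 81 counts in every library, and Slc17a8 held 2 to 30.

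Transcripts of cortical excitatory neurons such as Tbr1 and Neurod6 were present in all 12 libraries. Some libraries stood apart within their group. Striatal markers summed to 394 CPM in Sham replicate 1 but to 1136 and 868 CPM in Sham replicates 2 and 3, against 185 to 348 CPM in the other 9 libraries, with Ppp1r1b the highest of the 7 genes by the mean over the libraries. In rt-PA+Acu replicate 3, the astrocyte gene Gfap reached 4393 CPM against 2187 and 2182 CPM in the other libraries of the group, and excitatory neuron markers summed to 1319 CPM against 2226 and 2358 CPM. The ribosomal protein gene Rpl39, chosen after its values were seen, had 142 counts in Model replicate 3, near the 105 to 151 counts of Sham and below the 488 to 990 counts of the other 8 libraries. Without Model replicate 3, the number of transporter genes that changed between Model and Sham was 7, as with it, but Slc38a1 left the set (adjusted p = 0.066) and Slc32a1 entered it (0.0467). With Sham replicate 1 as the only Sham library, an alternative chosen after seeing the data, it was 6. There the spread comes from the other group alone, so that count neither supports nor questions the comparisons with Sham.

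**Figure D1:**
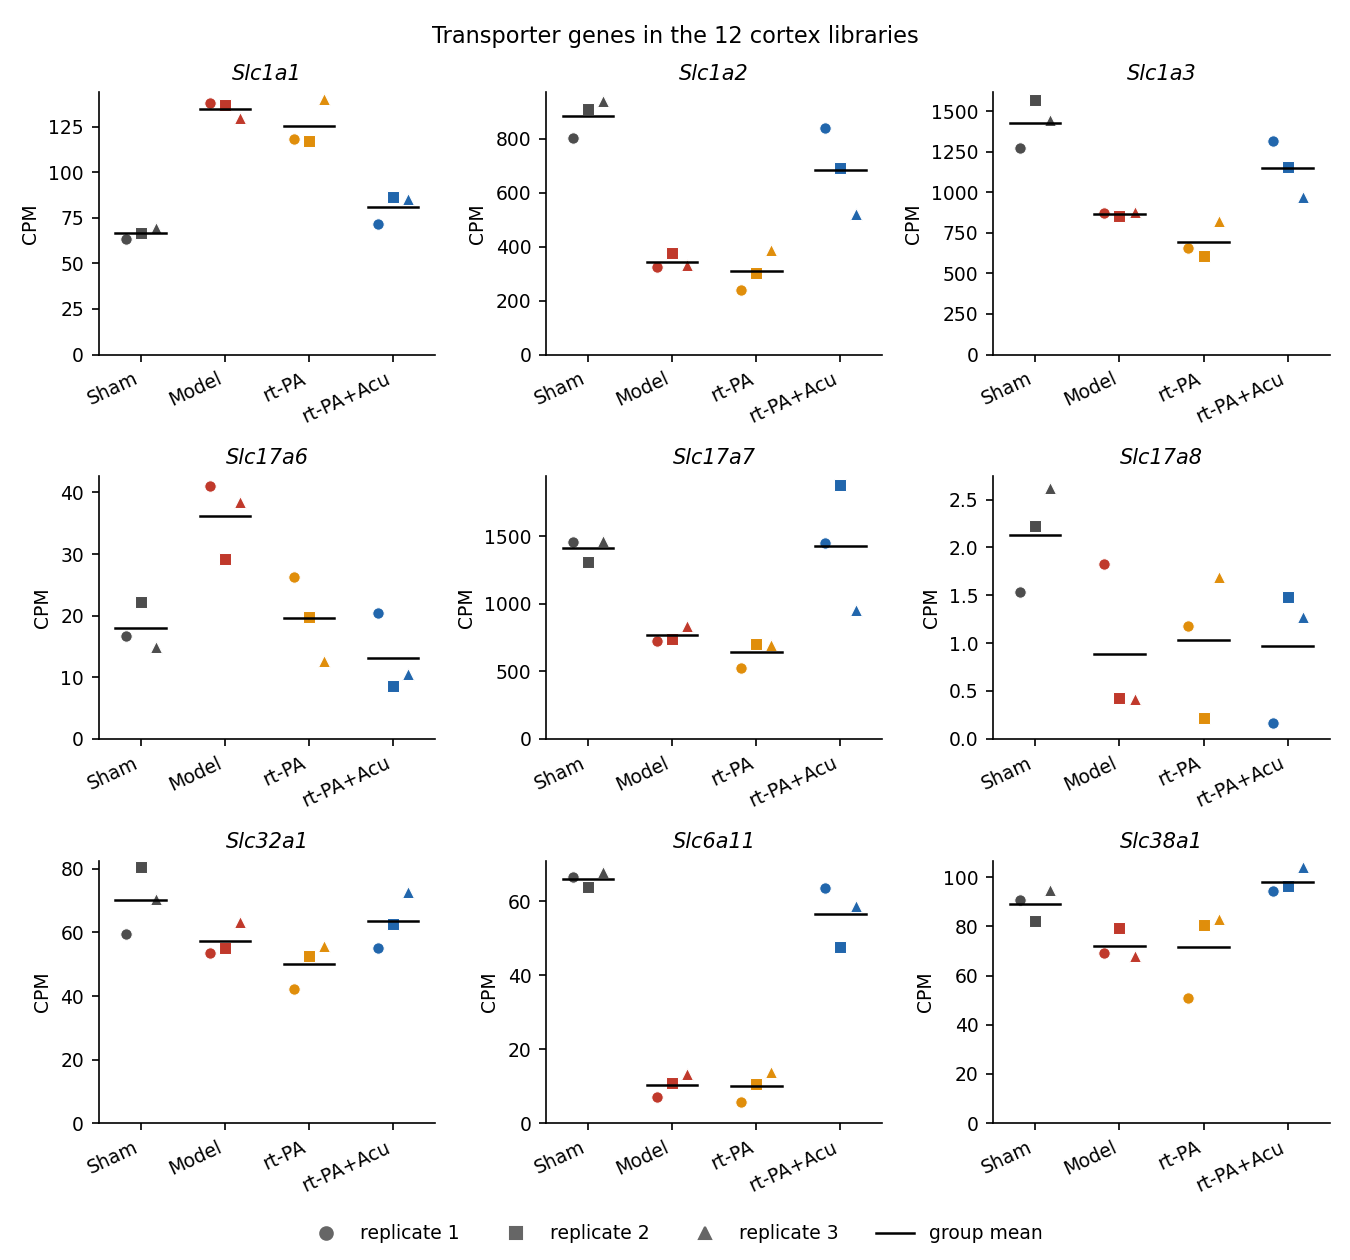
Level of each of the 9 transporter genes in CPM by group, 1 point per library (n = 3 per group) and a bar at the group mean. Slc1a2, Slc17a7 and Slc6a11 lie high in Sham and rt-PA+Acu and low in Model and rt-PA, and Slc1a1 lies the other way round.

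Model was compared with Sham for the change after embolic stroke, in libraries that also differed in striatal markers and in Rpl39, whose part was not tested. The astrocyte carriers for glutamate (Slc1a2, Slc1a3) and GABA (Slc6a11) fell, as did the vesicular carrier of cortical excitatory neurons (Slc17a7) and the glutamine carrier Slc38a1. The neuronal glutamate carrier Slc1a1 and the second vesicular glutamate carrier Slc17a6 rose. In bulk tissue, fewer cells of a type and less RNA per cell cannot be told apart. In total 7 of the 9 genes changed (adjusted p under 0.05 in the quasi-likelihood test of edgeR, Benjamini-Hochberg adjusted), while 54% of the 12884 genes tested did. Of these, 2 were higher and 5 lower in Model, beside 27.3% and 26.6% of all genes tested. A fold of 2 was also passed by 4 genes (Slc1a1, Slc1a2, Slc17a6 and Slc6a11), beside 21.5% of all genes, and DESeq2 called 7 of the 9 and 6950 genes in all. The median log2 fold change was -0.71 over the 9 genes and 0.014 over all genes tested. The p-values measure the spread between these libraries.

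Adding acupuncture to rt-PA was compared with rt-PA alone. Slc1a2, Slc1a3, Slc17a7 and Slc6a11 rose and Slc1a1 fell, each opposite in sign to its change after stroke. Here 5 of 9 genes changed by edgeR and 5 by DESeq2, where 34.8% of 12999 genes tested changed by edgeR and 5093 genes by DESeq2. The 34.8% are 4522 genes, a count that ran from 2496 to 5417 without 1 library at a time. That of the transporter genes ran from 4 to 5. The 4 transporter genes that rose stand beside 17% of all genes and the 1 that fell beside 17.7%. Slc1a2, Slc17a7 and Slc6a11 also passed a fold of 2, as did 15.3% of all genes. The median log2 fold change of the 9 genes was 0.46, against -0.0027 over all genes. Since Model vs Sham and rt-PA+Acu over rt-PA share no library, their signs can be set side by side: 8 of the 9 genes (88.9%) had opposite signs, beside 10411 of 12753 genes tested in both (81.6%). The share among the transporters was thus near that of the whole table.

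No transporter gene changed between rt-PA and Model, the comparison for late thrombolysis in stroke cortex, and 0% of 12941 genes did so, 0% higher, 0% lower and 0% past a fold of 2. Unadjusted p fell under 0.05 for 2 of the 9 genes and for 1284 genes in all, and DESeq2 called 0 and 192. The 2 genes were Slc17a6 (log2 fold change -0.89, adjusted p = 0.374) and Slc1a3 (-0.32, adjusted p = 0.466). For rt-PA+Acu against Sham, edgeR called 0 of 9 genes, with 1 at an unadjusted p under 0.05 and 0 by DESeq2. Of all 12775 genes 5.1% changed, 1.7% higher, 3.4% lower and 2.06% past a fold of 2, with 2964 at an unadjusted p under 0.05 and 1435 by DESeq2. The 5.1% are 651 genes, a count that ran from 112 to 856 without 1 library at a time. The 1 transporter gene at an unadjusted p under 0.05 was Slc1a1 (log2 fold change 0.28, adjusted p = 0.166). A p above the threshold does not show that the levels were equal. Between rt-PA+Acu and Model 6 of 9 genes changed (4 higher, 2 lower), beside 34.3% of all genes, and between rt-PA and Sham 6 (1 higher, 5 lower), beside 54.7%. Over all genes, 2233 were higher and 2178 lower in rt-PA+Acu vs Model, and 3570 and 3557 in rt-PA vs Sham.

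**Figure D2:**
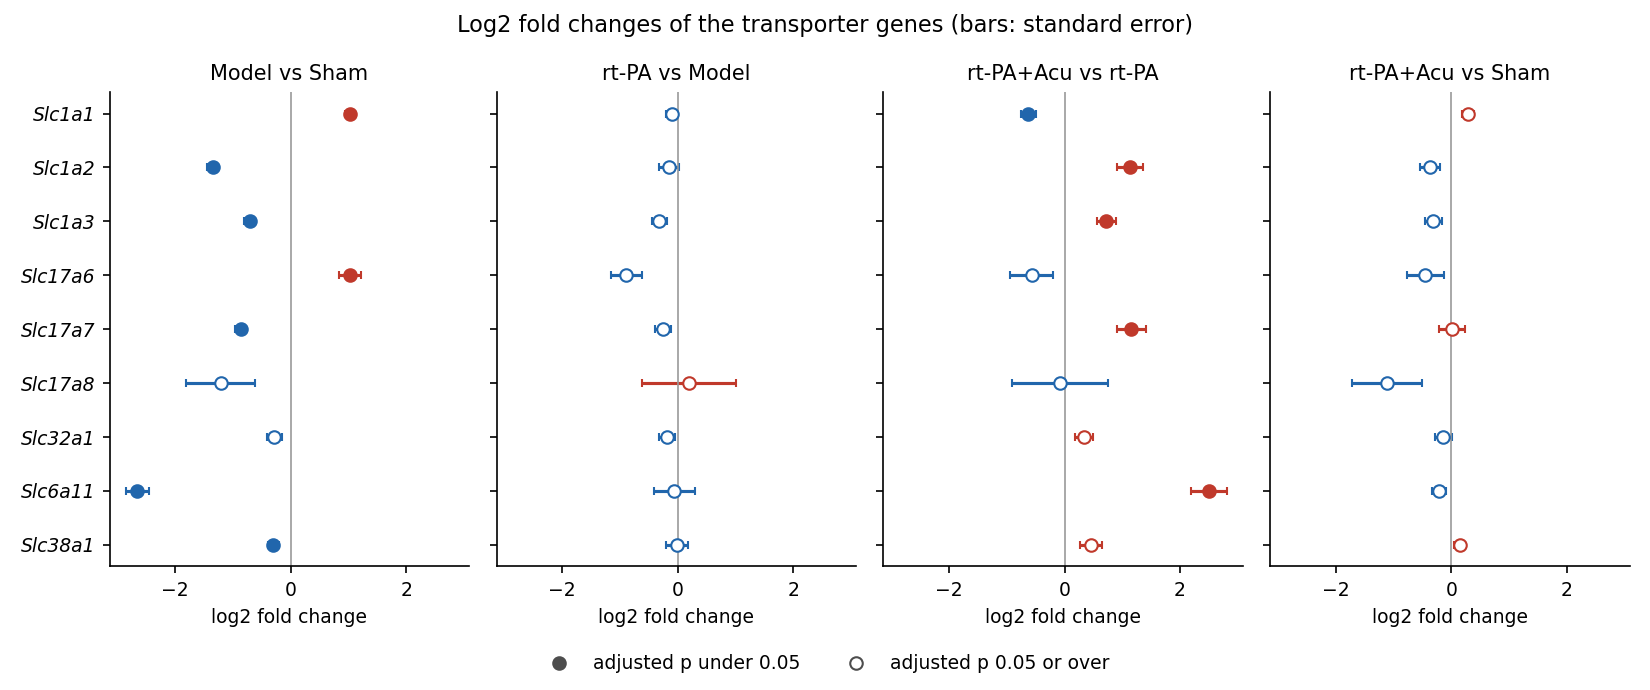
Log2 fold change of each transporter gene with its standard error in Model vs Sham, rt-PA vs Model, rt-PA+Acu over rt-PA and rt-PA+Acu vs Sham, with filled points for an adjusted p under 0.05 and colour for the sign. Slc6a11 has the lowest value in Model vs Sham (-2.66) and the highest in rt-PA+Acu over rt-PA (2.50).

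For the 3 genes past a fold of 2 in rt-PA+Acu over rt-PA, the 250 bases before the annotated starts are shown as the promoter letters of the genes with the largest change. The sequences are RefSeq's on the GRCr8 build, all on the plus strand: Slc1a2 at chr3:109459859-109460108, Slc17a7 at chr1:104785955-104786204 and Slc6a11 at chr4:148853307-148853556. Capitals mark the GC box letters GGGCGG on either strand.
Slc1a2: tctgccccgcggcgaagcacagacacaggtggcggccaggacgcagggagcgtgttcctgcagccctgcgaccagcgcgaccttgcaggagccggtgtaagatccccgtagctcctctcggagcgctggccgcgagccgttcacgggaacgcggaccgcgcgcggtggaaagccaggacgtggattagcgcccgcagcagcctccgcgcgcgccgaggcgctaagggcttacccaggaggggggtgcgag
Slc17a7: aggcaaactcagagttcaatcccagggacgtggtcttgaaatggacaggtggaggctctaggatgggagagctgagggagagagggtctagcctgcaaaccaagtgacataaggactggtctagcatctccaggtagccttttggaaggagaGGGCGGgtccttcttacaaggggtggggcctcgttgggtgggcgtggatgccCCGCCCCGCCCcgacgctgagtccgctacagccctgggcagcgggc
Slc6a11: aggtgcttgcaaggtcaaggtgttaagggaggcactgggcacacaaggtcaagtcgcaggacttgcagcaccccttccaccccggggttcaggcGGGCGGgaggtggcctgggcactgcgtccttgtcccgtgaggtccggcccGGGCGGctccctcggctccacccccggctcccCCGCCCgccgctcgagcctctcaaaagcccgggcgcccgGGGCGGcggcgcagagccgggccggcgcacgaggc
GC box letters occurred 4 times in the Slc6a11 window, 3 times in that of Slc17a7, where 2 matches overlap, and 0 times in that of Slc1a2. The table held 11 windows for 8 of the 9 genes, 2 of them for Slc1a2, of which the first is shown. It had none for Slc1a1. GC box letters were in 3 of the 11 windows (Slc32a1 is the third gene), beside 30.5% of all 33469 windows. CCAAT was in 2 (Slc32a1 and Slc38a1), beside 34% of all windows, and the AP-1 letters TGANTCA were in 1 (Slc38a1), beside 6.34%. Searched on both strands as well and found in 0 of the 11 were TGACGTCA (1.59% of all windows), TATAAA (12.9%), CACGTG (5.59%) and the NF-kB motif (0.0956%). G and C made up 71.2% of the Slc1a2 window shown and 45.6% of its second window, 61.2% of that of Slc17a7 and 73.6% of that of Slc6a11, against a median of 51.2% over all windows. The other windows of the 9 genes ran from 48% (Slc1a3) to 73.6% (Slc32a1). A match describes the letters only.

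Slc1a2 encodes EAAT2, the main glutamate uptake carrier of forebrain astrocytes. Its level was 803, 910.5 and 939.5 CPM in Sham replicates 1 to 3 and 325, 376 and 332 CPM in Model. In rt-PA it was 241, 302 and 389 CPM, and in rt-PA+Acu 842, 691 and 523 CPM. All Model and rt-PA libraries lay below all Sham and rt-PA+Acu libraries, and rt-PA+Acu overlapped Sham only through its replicate 1. Slc1a2 fell by 1.35 on the log2 scale (SE 0.097) in Model vs Sham, 2.55-fold lower (adjusted p = 3.05e-05). It rose by 1.14 (SE 0.23, adjusted p = 0.00917) in rt-PA+Acu over rt-PA, a fold of 2.2, and by 0.99 against Model (adjusted p = 0.00591). From high to low the groups ran Sham, rt-PA+Acu, Model, rt-PA. Neither the first pair (adjusted p = 0.246) nor the last pair (adjusted p = 0.832) passed the test.

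Slc1a3 encodes EAAT1, the other astrocyte carrier for glutamate. Sham libraries held 1273, 1570 and 1447 CPM, Model libraries 875, 851 and 879.8 CPM, rt-PA libraries 655, 606 and 824 CPM, and rt-PA+Acu libraries 1319, 1154 and 972 CPM. Of the 4 groups only Sham and rt-PA+Acu overlapped. All rt-PA libraries lay below all Model libraries, which lay below all Sham and rt-PA+Acu libraries. Slc1a3 fell by 0.71 (SE 0.094, adjusted p = 0.000442) after stroke. With acupuncture it rose by 0.72 over rt-PA (SE 0.17, adjusted p = 0.0156), a call that was lost without rt-PA replicate 1 (adjusted p = 0.0615) or rt-PA+Acu replicate 1 (0.0538). Slc1a3 also fell by 1.06 in rt-PA vs Sham (adjusted p = 5e-04). Between rt-PA+Acu and Model the log2 fold change of 0.40 missed the threshold (adjusted p = 0.0581), but passed it without rt-PA+Acu replicate 3 (0.00959), by DESeq2 (0.0176), with library size alone as the scaling (0.0492) and in 1 fit over all 12 libraries (0.0359). In the order Sham, rt-PA+Acu, Model, rt-PA no neighbours differed past the threshold (adjusted p = 0.244, 0.0581 and 0.466).

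The neuronal uptake carrier moved the other way. Slc1a1 encodes EAAT3, which takes glutamate and cysteine into neurons. Its level was 63.6, 66.6 and 69.6 CPM in Sham, 138, 137 and 129.7 CPM in Model, 118, 117 and 140.1 CPM for rt-PA, and 71.3, 86.6 and 85.1 CPM for rt-PA+Acu. Each rt-PA+Acu library lay above every Sham library and below every Model and rt-PA library. Slc1a1 rose by 1.03 (SE 0.083, adjusted p = 4.57e-05) in Model vs Sham, a fold of 2.04, and by 0.90 in rt-PA vs Sham (adjusted p = 0.000213). It fell by 0.63 (SE 0.13, adjusted p = 0.00919) in rt-PA+Acu over rt-PA, and by 0.74 against Model (adjusted p = 0.00336). The order from high to low was Model, rt-PA, rt-PA+Acu, Sham, where Model and rt-PA (adjusted p = 0.787) and rt-PA+Acu and Sham (adjusted p = 0.166) did not differ past the threshold.

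Among the vesicular glutamate carriers, Slc17a7 (VGLUT1) is the form of most cortical excitatory neurons. Its level was 1459, 1310 and 1464 CPM in Sham, 724, 740.2 and 838 CPM in Model and 525, 701 and 697 CPM for rt-PA. In rt-PA+Acu it was 1452, 1876 and 953 CPM, the widest spread of the 4 groups (coefficient of variation 32.4%), with 1 library above all Sham libraries and 1 below them. Slc17a7 fell by 0.87 (SE 0.092, adjusted p = 0.000159) after stroke and by 1.15 in rt-PA vs Sham (adjusted p = 0.000248). It rose by 1.15 (SE 0.25, adjusted p = 0.012) in rt-PA+Acu over rt-PA, a fold of 2.22. Its rise over Model (0.89, adjusted p = 0.0215) was lost without Model replicate 1 (0.0751), Model replicate 2 (0.0824), rt-PA+Acu replicate 1 (0.0573) or rt-PA+Acu replicate 2 (0.0605), and with the replicate number as a block (0.0634). The group means ran rt-PA+Acu (1427 CPM), Sham (1411), Model (768) and rt-PA (641), and neither the first pair (adjusted p = 0.976) nor the last (adjusted p = 0.588) differed past the threshold.

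Slc17a6 (VGLUT2) is the vesicular carrier of most subcortical glutamate neurons, the thalamus included, and of few cortical ones. Libraries held 16.7, 22.2 and 14.9 CPM in Sham, 41, 29.3 and 38.4 CPM in Model, 26.3, 19.7 and 12.6 CPM for rt-PA, and 20.5, 8.54 and 10.5 CPM for rt-PA+Acu. The 3 Model libraries were the highest of the 12. Slc17a6 rose by 1.02 (SE 0.19, adjusted p = 0.00225) in Model vs Sham and fell by 1.46 (adjusted p = 0.0115) in rt-PA+Acu vs Model. Between rt-PA+Acu and rt-PA the log2 fold change was -0.57 (SE 0.38, adjusted p = 0.271), and between rt-PA and Sham 0.10 (adjusted p = 0.767). Its share of the counts of the 3 vesicular glutamate genes was 1.01% to 1.66% in Sham, 3.8% to 5.34% in Model, 1.77% to 4.76% for rt-PA and 0.453% to 1.39% for rt-PA+Acu. In the order Model, rt-PA, Sham, rt-PA+Acu no neighbours differed past the threshold (adjusted p = 0.374, 0.767 and 0.429). Thalamic markers summed to 57.3, 67.8 and 64.4 CPM in Sham, 209, 192 and 164 CPM in Model, 191, 105 and 181 CPM for rt-PA and 75.5, 58.6 and 70.5 CPM for rt-PA+Acu. Of 5 thalamic genes tested in Model vs Sham, 1 was higher and 2 lower, beside 27.3% and 26.6% of all genes. Prkcd made up 74.6% to 86.3% of the sum in Model, while Lhx9 had at most 12 counts and Gbx2 at most 7 in any library. The part of these markers in the Slc17a6 values was not tested.

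Slc17a8 (VGLUT3), found in small groups of neurons that mostly release another transmitter, was at the edge of detection. It had 19, 29 and 30 counts in Sham, 24, 5 and 5 in Model, 17, 3 and 23 for rt-PA, and 2, 17 and 17 for rt-PA+Acu. None of the 6 comparisons passed the threshold (adjusted p between 0.117 and 0.968), such as Model vs Sham with a log2 fold change of -1.21 (SE 0.59, adjusted p = 0.117). Without Model replicate 1, which held 24 counts, that comparison gave -2.31 (adjusted p = 0.00783). From high to low the groups ran Sham, rt-PA, rt-PA+Acu, Model, with no neighbours past the threshold.

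On the GABA side, Slc32a1 (VGAT) fills vesicles with GABA and glycine. It was at 59.5, 80.7 and 70.5 CPM in Sham, 53.4, 55.1 and 63.2 CPM in Model, 42.3, 52.7 and 55.6 CPM for rt-PA, and 55.1, 62.6 and 72.7 CPM for rt-PA+Acu. The ranges of Sham, Model and rt-PA+Acu overlapped, and those of rt-PA and Sham did not. Model vs Sham gave a log2 fold change of -0.29 (SE 0.13, adjusted p = 0.09), which passed the threshold without Sham replicate 1 (-0.40, adjusted p = 0.0319) or Model replicate 3 (-0.36, adjusted p = 0.0467). Without Sham replicate 2 it was -0.18 (adjusted p = 0.292). In rt-PA vs Sham it fell by 0.50 (adjusted p = 0.0207). That call was lost without Sham replicate 2 (0.0754), Sham replicate 3 (0.056) or rt-PA replicate 1 (0.0544) or with library size alone (0.0551). With Sham replicate 1 as the only Sham library, where rt-PA alone gave the spread, the log2 fold change was -0.26 (adjusted p = 0.361). With acupuncture over rt-PA the log2 fold change was 0.34 (SE 0.15, adjusted p = 0.124). The order was Sham, rt-PA+Acu, Model, rt-PA, and no neighbours differed past the threshold.

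Slc6a11 (GAT-3), the carrier that takes GABA into astrocytes, had the largest fold changes of the 9 genes after stroke and with acupuncture. Sham libraries held 66.5, 63.8 and 67.9 CPM and Model libraries 7.18, 10.7 and 13.4 CPM. The rt-PA libraries were at 5.62, 10.6 and 13.8 CPM, and the rt-PA+Acu libraries at 63.6, 47.5 and 58.8 CPM. The lowest rt-PA+Acu library was thus above 3 times the highest rt-PA library. Slc6a11 fell by 2.66 (SE 0.20, adjusted p = 3.41e-05) in Model vs Sham, 6.3-fold lower, and by 2.74 in rt-PA vs Sham (adjusted p = 0.000134). It rose by 2.50 (SE 0.30, adjusted p = 0.00195) in rt-PA+Acu over rt-PA, 5.66-fold, and by 2.44 against Model (adjusted p = 0.000849). All 3 rt-PA+Acu libraries lay below all 3 Sham libraries, with a log2 fold change of -0.22 (adjusted p = 0.31), and the means of Model and rt-PA were 10.4 and 10 CPM (adjusted p = 0.978). With the means in the order Sham, rt-PA+Acu, Model, rt-PA, the middle pair alone differed past the threshold.

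Slc38a1 (SNAT1) carries glutamine into neurons. It stood at 90.6, 82.2 and 95 CPM in Sham, 69.1, 79.2 and 67.9 CPM in Model, 50.8, 80.6 and 83 CPM for rt-PA, and 94.2, 96.4 and 104 CPM for rt-PA+Acu. The rt-PA+Acu libraries lay above all Model and rt-PA libraries. It fell by 0.30 (SE 0.10, adjusted p = 0.0337) after stroke, a call lost without Sham replicate 1 (0.0798), Sham replicate 3 (0.105), Model replicate 1 (0.0839) or Model replicate 3 (0.066). It was also lost with library size alone (-0.23, 0.0772), with the replicate block (-0.30, 0.0639) and in 1 fit over all 12 libraries (-0.31, 0.119). With Sham replicate 1 as the only Sham library, where Model alone gave the spread, the log2 fold change was -0.33 (adjusted p = 0.175). With acupuncture it was higher than in Model (0.45, adjusted p = 0.0176), which did not hold without Model replicate 1 (0.0677) or rt-PA+Acu replicate 2 (0.0519) or with the block (0.0619). The difference from rt-PA (0.46, SE 0.19, adjusted p = 0.0938) passed the threshold in the fit over all 12 libraries (0.0339). Group means ran rt-PA+Acu, Sham, Model, rt-PA, where Sham and Model alone were neighbours past the threshold.

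Ratios within a library do not depend on its scaling, and are given as descriptions with no test. Of the astrocyte glutamate carriers, Slc1a2 had 0.58 to 0.649 counts for each Slc1a3 count in Sham, 0.371 to 0.441 in Model, 0.367 to 0.499 for rt-PA and 0.537 to 0.638 for rt-PA+Acu. Relative to Slc1a3, Slc1a2 was thus lower in every Model and rt-PA library than in any Sham or rt-PA+Acu library. The log2 ratio of Slc17a7 to Slc32a1, excitatory to inhibitory vesicular carrier, averaged 4.34 in Sham (SD 0.30), 3.75 in Model (SD 0.016), 3.67 for rt-PA (SD 0.054) and 4.45 for rt-PA+Acu (SD 0.64). In rt-PA+Acu replicate 3 it was 3.71, inside the range of the Model and rt-PA libraries, against 4.72 and 4.91 in replicates 1 and 2. For Slc17a7 to Slc17a6 the means were 6.31 in Sham, 4.42 in Model, 5.09 for rt-PA and 6.81 for rt-PA+Acu.

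**Figure D3:**
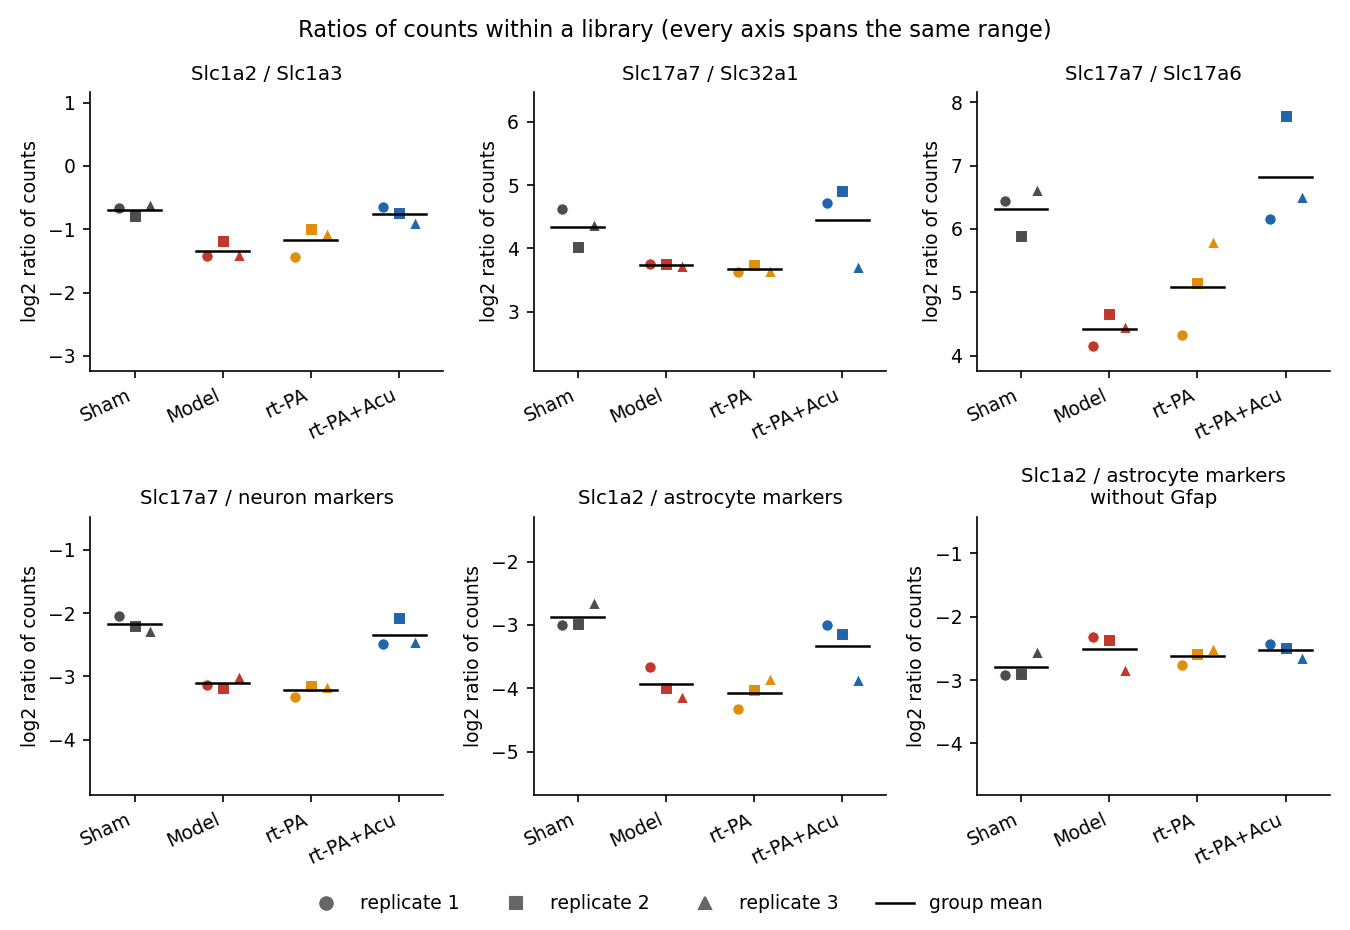
Log2 ratios of transporter gene counts to each other and to summed marker counts, 1 point per library and a bar at the group mean. Slc17a7 to Slc32a1 lies between 3.63 and 3.76 in all Model and rt-PA libraries, and rt-PA+Acu replicate 3 lies with them at 3.71.

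Neuron and astrocyte markers were read beside the carriers. Over all genes, 27.3% were higher and 26.6% lower in Model vs Sham, and 17% were higher and 17.7% lower in rt-PA+Acu over rt-PA, for comparison with the counts below. The summed level of 10 pan-neuronal genes was 5996, 6040 and 7146 CPM in Sham, 6364, 6706 and 6776 CPM in Model, 5235, 6259 and 6252 CPM for rt-PA, and 8122, 7923 and 5254 CPM for rt-PA+Acu. Snap25 was the most abundant of them, and in Model vs Sham 2 were higher and 4 lower. Excitatory cortical neuron markers, led by Camk2a, summed to 3489, 3241 and 3208 CPM in Sham, 796, 701 and 858 CPM in Model, 486, 677 and 809.6 CPM for rt-PA, and 2226, 2358 and 1319 CPM for rt-PA+Acu. Of the 9 tested, 8 fell after stroke and 7 rose in rt-PA+Acu over rt-PA. The log2 ratio of Slc17a7 to the pan-neuronal sum averaged -2.18 in Sham, -3.11 in Model, -3.21 for rt-PA and -2.34 for rt-PA+Acu. Interneuron markers, led by Cck, summed to 615 to 648 CPM in Sham, 1021 to 1377 CPM in Model, 862 to 1112 CPM for rt-PA and 617 to 882 CPM for rt-PA+Acu, with 2 of 9 higher and 3 lower in Model. Cck alone made up 35.4% to 43.4% of the sum in Sham and 57.3% to 58.4% in Model. Npy was at 23.4 to 29.2 CPM in Sham and 127 to 197 CPM in Model, so the higher sum does not describe the list as a whole. None of these neuronal lists had a gene at 0 in any library. Their part in the carrier values was not tested.

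Astrocyte markers without Gfap summed to 6055, 6811 and 5534 CPM in Sham and 1628, 1933 and 2387 CPM in Model. They summed to 1640, 1820 and 2225 CPM for rt-PA and 4531, 3908 and 3276 CPM for rt-PA+Acu, and Ndrg2 had the highest mean over the 12 libraries. Of all 10 astrocyte genes, Gfap included, 8 fell and 1 rose after stroke, and 9 rose in rt-PA+Acu over rt-PA, with no gene at 0 in any library. Gfap alone made up 5.74% to 6.17% of the full sum in Sham, 59.2% to 67.9% in Model, 60.6% to 66.2% for rt-PA and 32.6%, 35.8% and 57.3% for rt-PA+Acu. Relative to the full astrocyte sum, the mean log2 ratio of Slc1a2 was -2.88 in Sham, -3.93 in Model, -4.07 for rt-PA and -3.34 for rt-PA+Acu. With Gfap left out, which was decided with the data in view, the means were -2.79, -2.51, -2.62 and -2.53, and the ranges of the groups overlapped. The part of the astrocyte markers in the levels of Slc1a2, Slc1a3 and Slc6a11 was not tested.

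**Figure D4:**
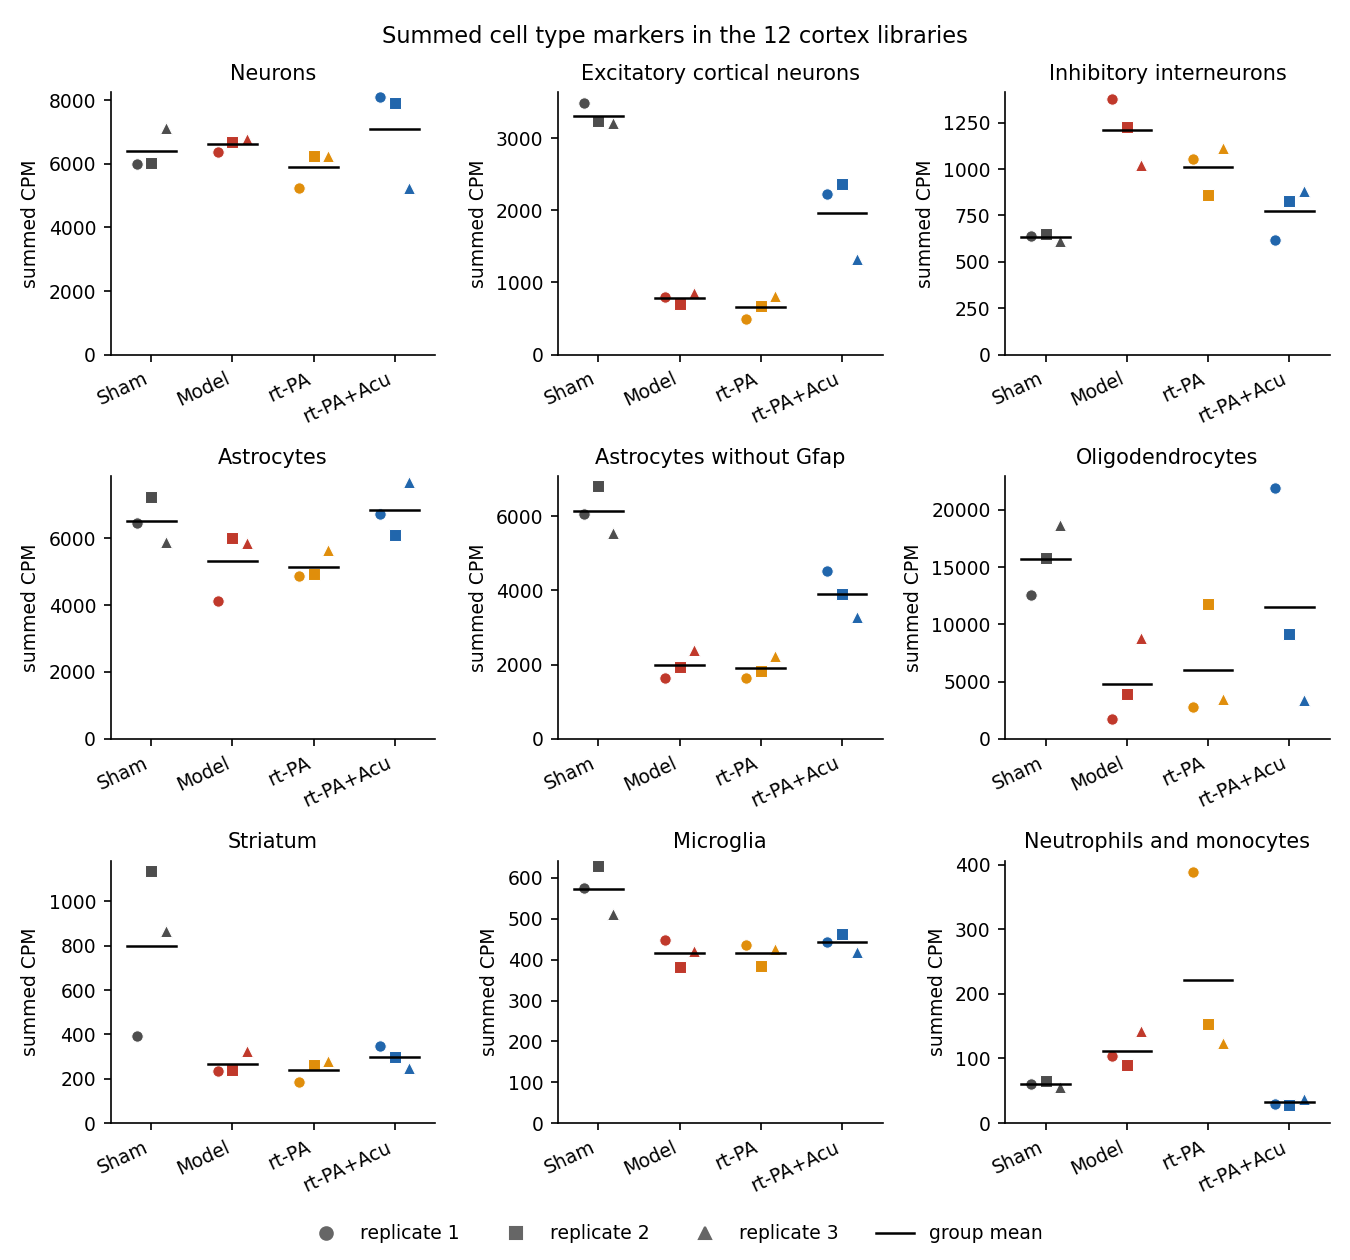
Summed CPM of cell type and striatal marker lists by group, 1 point per library and a bar at the group mean. Excitatory neuron markers lie between 3208 and 3489 CPM in Sham and between 486 and 858 CPM in the Model and rt-PA libraries.

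A list of 32 further genes covers the rest of the glutamate and GABA cycle. In Model vs Sham 23 of the 31 tested changed (8 higher, 15 lower), beside 54% of all genes (27.3% higher, 26.6% lower). In rt-PA+Acu over rt-PA 14 of 31 did (11 higher, 3 lower), beside 34.8% (17% higher, 17.7% lower). DESeq2 called 24 and 15, and 6950 and 5093 of all genes. The median log2 fold changes were -0.34 and 0.33, and 26 of 31 genes (83.9%) had opposite signs, beside 81.6% of all genes. In rt-PA vs Model 0 of 30 changed, beside 0% of all genes, 2 at an unadjusted p under 0.05 and 0 by DESeq2. In rt-PA+Acu vs Sham 2 of 31 changed, beside 5.1% of all genes, with 15 at an unadjusted p under 0.05 (2964 of all genes) and 6 by DESeq2. The 2 were Slc7a11, higher by 0.59 (adjusted p = 0.0395), and Glul, lower at -0.58 (adjusted p = 0.0446). The count of 2 was 0 without Sham replicate 1, 2 or 3 or without rt-PA+Acu replicate 2, and 4 without rt-PA+Acu replicate 1. In that last fit the Glul call was lost (adjusted p = 0.0791), and the Slc7a11 call was lost without rt-PA+Acu replicate 3 (0.0565). In rt-PA+Acu vs Model 14 changed (12 higher, 2 lower), beside 34.3% of all genes (2233 higher, 2178 lower). In rt-PA vs Sham 22 changed (7 higher, 15 lower), beside 54.7% (3570 higher, 3557 lower). With Sham replicate 1 as the only Sham library, the Model vs Sham log2 fold changes were 1.14 for Slc7a11 (1.19 in the main fit) and -0.69 for Glul (-0.83). They were 0.74 for Gad1 (0.87 in the main fit) and 0.96 for Gad2 (0.90). The calls of these 4 genes and of Slc1a6 were lost there. Model alone gave the spread, so the losses neither support nor question the calls.

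Other carriers of the cell membrane split by gene. Slc1a5, which exchanges neutral amino acids including glutamine, had a mean of 2.25 CPM in Sham, 30.7 in Model, 30.2 for rt-PA and 4.98 for rt-PA+Acu. It rose by 3.78 on the log2 scale (SE 0.39, adjusted p = 0.00014) after stroke and fell by 2.58 (SE 0.34, adjusted p = 0.00242) with acupuncture over rt-PA. With Sham replicate 1 as the only Sham library, where Model alone gave the spread, the value after stroke was 4.47. The GABA and taurine carrier Slc6a13 (GAT-2) had 50, 112 and 97 counts in Sham, 2, 6 and 2 in Model, 2, 2 and 0 for rt-PA, and 55, 34 and 28 for rt-PA+Acu. It fell after stroke (adjusted p = 0.000225) and rose in rt-PA+Acu over rt-PA (adjusted p = 0.00285), with too few counts in the low groups for a fold to be given. Slc1a6 (EAAT4), best known from Purkinje cells, had 26, 34 and 31 counts in Sham and 2, 2 and 13 in Model. It fell after stroke (adjusted p = 0.0134), also without Model replicate 3 (0.000573), and no fold is given for the same reason. Slc6a12, a carrier of betaine and GABA, had at most 11 counts in a library and passed the filter in no comparison.

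Enzymes that make and use glutamate and GABA changed in both directions. Glul, the astrocyte enzyme that makes glutamine, was at 2968, 3500 and 3353 CPM in Sham, 1227, 1975 and 2310 CPM in Model, 1617, 2549 and 1935 CPM for rt-PA, and 2212, 2051 and 2296 CPM for rt-PA+Acu. It fell by 0.83 (SE 0.20, adjusted p = 0.00917) after stroke, and in rt-PA+Acu over rt-PA its log2 fold change was 0.10 (adjusted p = 0.682). The GABA-making enzymes Gad1 and Gad2 rose after stroke by 0.87 (adjusted p = 0.000876) and 0.90 (adjusted p = 0.00237). Their log2 fold changes in rt-PA+Acu over rt-PA were -0.29 (adjusted p = 0.328) and -0.41 (adjusted p = 0.152), and Gad2 passed the threshold with the replicate block (0.0472). Without rt-PA+Acu replicate 3, whose Gad1 level was 555 CPM against 307 and 352 CPM, the log2 fold change of Gad1 was -0.58 (adjusted p = 0.0122). Over all 10 enzymes, 3 rose and 6 fell after stroke, beside 27.3% and 26.6% of all genes. With acupuncture over rt-PA 3 enzymes rose, beside 17% of all genes.

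The pair of genes for cystine-glutamate exchange, which brings cystine in and lets glutamate out, both rose after stroke and both fell in rt-PA+Acu over rt-PA. Slc7a11, its transport subunit, rose by 1.19 (SE 0.22, adjusted p = 0.00257) and fell by 0.64 (SE 0.20, adjusted p = 0.0454). Slc3a2, its heavy chain, fell by 0.50 (SE 0.12, adjusted p = 0.0169) in rt-PA+Acu over rt-PA. The fall of Slc3a2 was lost without rt-PA replicate 3 (0.0582), rt-PA+Acu replicate 1 (0.0578) or rt-PA+Acu replicate 2 (0.0597). That of Slc7a11 was lost without rt-PA replicate 2 (-0.39, adjusted p = 0.087), rt-PA replicate 3 (0.079), rt-PA+Acu replicate 1 (0.132), rt-PA+Acu replicate 2 (0.102) or rt-PA+Acu replicate 3 (0.063).

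The potassium channel Kcnj10 (Kir4.1) of astrocytes, which helps keep the gradients that drive uptake, was at 355, 462 and 421 CPM in Sham, 44.4, 88.9 and 106 CPM in Model, 64.6, 90.0 and 111 CPM for rt-PA, and 667, 473 and 309 CPM for rt-PA+Acu. It fell by 2.36 (SE 0.28, adjusted p = 0.000265) after stroke and rose by 2.44 (SE 0.31, adjusted p = 0.00223) with acupuncture over rt-PA. Of the 6 ion pump and channel genes, 4 fell and 1 rose after stroke, and 3 rose in rt-PA+Acu over rt-PA. For comparison with this and the counts below, 27.3% of all genes were higher and 26.6% lower after stroke. In rt-PA+Acu over rt-PA these shares were 17% and 17.7%. Slc25a18, a mitochondrial glutamate carrier, fell by 2.27 (SE 0.16, adjusted p = 3.08e-05) and rose by 2.17 (SE 0.33, adjusted p = 0.00396) in rt-PA+Acu over rt-PA. Among 4 mitochondrial carriers, 1 rose and 1 fell after stroke, and 2 rose in rt-PA+Acu over rt-PA. Slc38a3 (SNAT3), which moves glutamine at astrocytes, fell by 1.74 (SE 0.19, adjusted p = 0.000168) after stroke. It rose by 1.99 (SE 0.23, adjusted p = 0.00164) in rt-PA+Acu over rt-PA. In each of these comparisons it was the 1 of 4 glutamine carriers that changed.

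**Figure D5:**
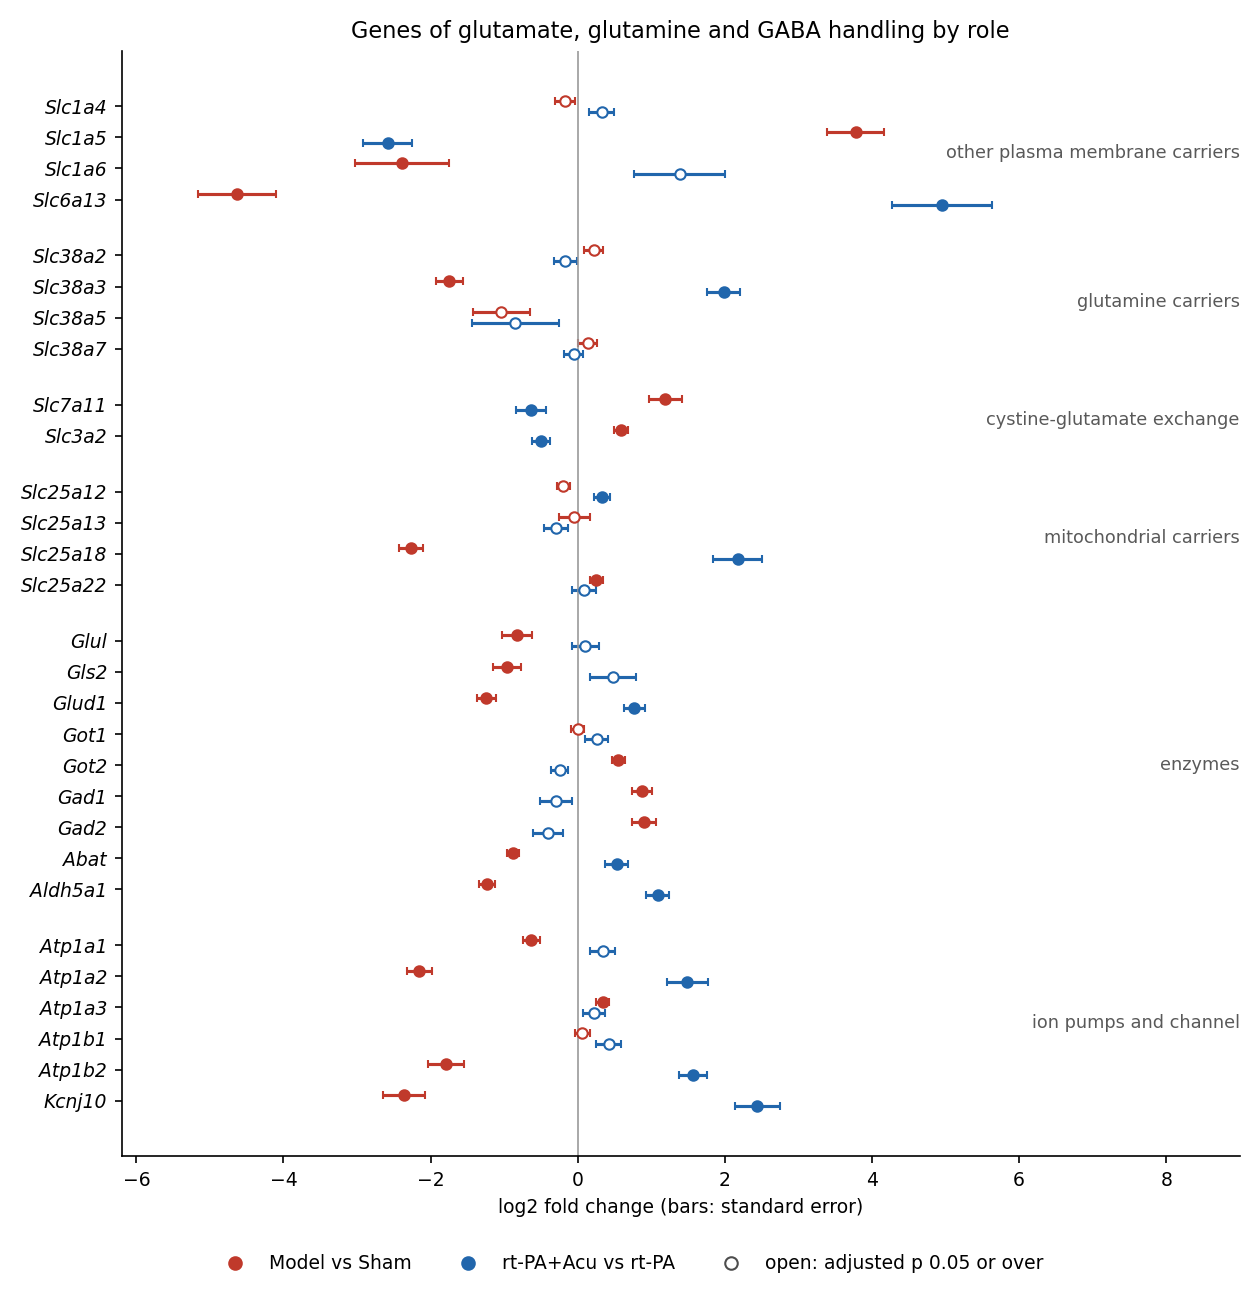
Log2 fold changes with standard errors of 29 of the 31 tested genes of the glutamate and GABA cycle, by role, in Model vs Sham (red) and rt-PA+Acu over rt-PA (blue), with open points for an adjusted p of 0.05 or over. Slc1a5 is the highest in Model vs Sham at 3.78, and the fitted values of Slc6a13, which had at most 2 counts in each rt-PA library, are no bound. Those of Slc1a6 rest on 2, 2 and 13 counts in Model.

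Genes whose levels ran most like those of a transporter were found by Pearson correlation of log2 CPM over the 12 libraries among 12744 genes, as a description. The libraries fall into 4 groups, so the points are not independent of each other. By Spearman correlation the nearest 3 shared 0 to 2 genes with those named for each transporter, so the choice of gene depends on the measure. For Slc1a2 the 2 closest were Sdha (r = 0.986) and Luzp2 (0.984), and for Slc1a3 the closest were Slc38a3 (0.973), Ttyh1 (0.972) and Slc7a10 (0.969). Slc1a1 was nearest to Hgs (0.991), Fkbpl (0.986) and Ipo5 (0.986). Slc17a7 ran with Mapre3 (0.989), Itfg1 (0.988) and the NMDA receptor subunit Grin1 (0.986), and Slc17a6 with Sympk (0.893), Thap6 (0.893) and Vegfa (0.889). The genes nearest to Slc32a1 were Scrt2 (0.904), Dlx6 (0.888) and Fscn1 (0.867). For Slc6a11 they were Lgr4 (0.986), Rhpn2 (0.985) and Plch2 (0.985), for Slc38a1 Ptpn4 (0.958), Rgs17 (0.937) and Nckap5 (0.932), and for the sparsely counted Slc17a8 Fam13b (0.878), Calb1 (0.851) and Glyr1 (0.817).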

How the data were processed

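The authors deposited raw whole-number counts per gene symbol and library, which were used as they stand. Per the study's methods and notes, paired-end reads were aligned with STAR 2.7.10a to mRatBN7.2 and counted on Ensembl genes. Both Salmon 1.9.0 and featureCounts 2.0.1 are named, and the annotation release, the use of molecular identifiers and the rounding are not stated. Counts are therefore not taken as independent molecules, and limits drawn from them cover counting error only. Of 17268 symbols, 15895 had a count in at least 1 library.

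The tools were edgeR 4.0.16, DESeq2 1.42.0 and limma 3.58.1 under R 4.3.3, and for plots matplotlib 3.10.9 under Python 3.11.15. TMM factors over all 12 libraries (0.949 to 1.08) gave the CPM. For each of 6 pairs of groups a separate fit took the 6 libraries involved and all genes kept by filterByExpr, with edgeR's quasi-likelihood test and Benjamini-Hochberg adjustment over all genes tested, and a change is an adjusted p under 0.05. Likeness between genes was read from log2 CPM (prior count 2) among genes with a mean of at least 1 CPM. The fit was tested on simulated data.

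The transporter genes, the list of 32 further genes and the 11 marker lists (89 genes, 83 of them in the table) were chosen with earlier results of these data known. Of the further genes, the text names up to 4 with the largest rise and 4 with the largest fall per comparison, and always Glul, Gad1, Gad2 and Slc7a11. Slc6a12, tested in no comparison, was named after its values were seen. Each transporter gene has its 3 most correlated genes, except Slc1a2 with 2. Some genes of these lists are not reported here by name or in the figures, and list counts and sums include them. Nrgn, Pvalb, Flt1, Slco1a4, Abcb1a and Ly6c1 were not in the table. Alternatives were DESeq2, RLE or library size in place of TMM, no filter or at least 10 counts, 1 fit over 12 libraries, the replicate number as a block, a fold of 2 and leaving out each library. After seeing the data, Sham replicate 1 as the only Sham library and the astrocyte list without Gfap were added.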

Additional observations from a re-analysis of the deposited data

How the results depend on the processing

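Of the values of single transporter genes under an alternative, 668 kept their direction and side of the threshold, 23 lost a call, 8 gained one and 23 changed sign. For the further genes of the cycle that the naming rule took these were 553, 42, 6 and 13. No value that changed sign was past the threshold before or after, and the cause was not tested for any value below. The sample titles do not say whether replicate numbers pair rats across groups. Correlations of same-numbered libraries ran from -0.255 to 0.144, and in 6 of 18 pairs the own number matched best. In Model vs Sham the own number matched best for each replicate (0.111, 0.0661 and 0.0464). No clear pairing was seen, so the block is a check only. Library size alone moved the median log2 fold change of all genes in rt-PA vs Sham by 0.147, with 62.2% of the calls higher in place of 50.1%. In Model vs Sham that share went from 50.6% to 57.1%, and for rt-PA+Acu over rt-PA from 49% to 40.9%. Depth limits what can be said of Slc17a8, Slc1a6, Slc6a12 and Slc6a13.

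A fold of 2 left fewer changed genes: transporter genes 4 in Model vs Sham, 3 in rt-PA+Acu over rt-PA and 2 in rt-PA+Acu vs Model; further genes 12 in Model vs Sham, 9 in rt-PA+Acu over rt-PA, 0 in rt-PA+Acu vs Sham, 12 in rt-PA vs Sham. For all genes it left 2765 in Model vs Sham, 1993 in rt-PA+Acu over rt-PA, 263 in rt-PA+Acu vs Sham, 1866 in rt-PA+Acu vs Model and 2940 in rt-PA vs Sham. With Sham replicate 1 as the only Sham library, where the spread comes from the other group alone, 14 further genes changed in Model vs Sham, 0 in rt-PA+Acu vs Sham, and all genes gave 3059 in Model vs Sham, 0 in rt-PA+Acu vs Sham, 3554 in rt-PA vs Sham. DESeq2 called 192 genes in rt-PA vs Model, and 1435 genes and 6 further genes in rt-PA+Acu vs Sham. The fit over all 12 libraries called 3 genes in rt-PA vs Model and 0 further genes in rt-PA+Acu vs Sham. With the block, rt-PA+Acu vs Sham had 289 genes and 0 further genes, and rt-PA+Acu vs Model 2693 genes.

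Without 1 library at a time, all genes changed ranged from 0 to 3 in rt-PA vs Model, 2496 to 5417 in rt-PA+Acu over rt-PA, 112 to 856 in rt-PA+Acu vs Sham and 2546 to 5257 in rt-PA+Acu vs Model, and further genes from 0 to 4 in rt-PA+Acu vs Sham.

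Sign changes in rt-PA vs Model without 1 library gave log2 fold changes of -0.35 to 0.0075 for Slc1a2, -0.37 to 1.28 for Slc17a8, -0.37 to 0.23 for Slc6a11, -0.14 to 0.18 for Slc38a1, -0.074 to 0.34 for Glul, -0.099 to 0.13 for Gad1, -0.18 to 0.13 for Gad2 and -0.21 to 0.23 for Slc7a11. Gad2 had -0.0033 by DESeq2, -0.0034 with RLE and -0.0014 in the fit over all 12 libraries, and Slc38a1 had 0.036 with library size alone. In rt-PA+Acu over rt-PA the ranges were -0.55 to 0.47 for Slc17a8 and -0.039 to 0.30 for Glul. In rt-PA+Acu vs Sham the range was -0.23 to 0.23 for Slc17a7, which there had -0.035 with the block and -0.036 with Sham replicate 1 alone, where Slc32a1 had 0.090. Slc17a8 ran from -0.29 to 1.2 in rt-PA+Acu vs Model, and Slc17a6 from -0.16 to 0.35 in rt-PA vs Sham.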

Other observations

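Other marker lists differed between the groups as well, where 27.3% of all genes were higher and 26.6% lower in Model vs Sham, and 17% and 17.7% in rt-PA+Acu over rt-PA. Of 8 oligodendrocyte genes, led by Mbp, 7 fell in Model vs Sham, and 0 changed in rt-PA+Acu over rt-PA by edgeR's quasi-likelihood test, with 1 at an unadjusted p under 0.05 and 0 by DESeq2. Their summed level was 12520, 15750 and 18700 CPM in Sham, 1710, 3890 and 8812 CPM in Model, 2744, 11760 and 3487 CPM for rt-PA, and 21910, 9144 and 3355 CPM for rt-PA+Acu, so the libraries lay further apart within Model, rt-PA and rt-PA+Acu than within Sham. Of 6 microglial genes tested, 1 rose and 5 fell after stroke, with sums of 511 to 630 CPM in Sham and 383 to 447 CPM in Model. The 6 genes of neutrophils and monocytes tested, led by Lyz2, had 4 rises after stroke. In rt-PA+Acu over rt-PA all 7 tested fell, with sums of 30.1, 28.3 and 37.7 CPM against 388, 153 and 125 CPM.

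All 4 endothelial genes fell in rt-PA+Acu over rt-PA, where the sums were 63.7, 60.7 and 67.5 CPM against 322, 206 and 237 CPM. In Model vs Sham 1 of the 4 rose, and the sums were 177, 211 and 333 CPM against 103, 122 and 93.7 CPM, of which Kdr made up 94.7, 121 and 136 CPM against 15.9, 20.5 and 12.8 CPM. Of 7 striatal genes 6 fell in Model vs Sham and 1 rose in rt-PA+Acu over rt-PA. Their sums were 394, 1136 and 868 CPM in Sham replicates 1 to 3 and 233 to 324 CPM in Model. The part of this spread within Sham in the count was not tested. Of the choroid plexus genes Kl alone was tested in Model vs Sham, where it rose, and in rt-PA+Acu over rt-PA, where it fell, while Ttr, the most abundant transcript of that tissue, had at most 3 counts in any library.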
